A study of Mus musculus with 2 samples.

Results

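The genes of oxidative phosphorylation were taken by symbol from the feature lists of both libraries. Symbols starting with mt-Nd, mt-Co, mt-Atp or mt-Cytb gave 13 genes of the mitochondrial genome, and symbols starting with Nduf, Uqcr, Atp5 or Cox4 to Cox8 gave 90 nuclear genes, together 103 of the 32285 genes listed. The nuclear genes were 37 of complex I, 8 assembly factors of complex I, 8 of complex III, 19 of complex IV, Cox7a2l as a group of its own and 17 of complex V. Membership followed the symbols alone, but the choice was made with earlier results of these data known. Of the nuclear genes, 88 had at least 1 unique molecular identifier (UMI, a tag that counts 1 captured RNA molecule) in a classified cell and 86 had at least 50. The testis isoform genes Cox7b2 and Cox8c had 0 UMIs.

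The cells came from orthotopic pancreatic tumors grown in male C57BL/6J mice from K210 cells, a line from a mouse pancreatic tumor. Mice received PBS or cmExoaCD11b intraperitoneally. The latter are exosomes of mouse embryonic fibroblasts that were loaded with cGAMP, which activates STING, and with mRNA of the cytokine IL-12, and that carried antibodies against CD11b, a surface integrin of myeloid cells. The paper describes the cells as immune cells from the tumors. Those of 3 mice per treatment were pooled 48 h after treatment into 1 droplet library each. By their markers, 45 PBS and 32 cmExoaCD11b cells were still classed as epithelial. Both groups shared the tumor line and mouse strain, and no animal can be told from another.

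Oxidative phosphorylation makes most of the ATP of resting and memory lymphocytes and of many macrophages, whereas mature neutrophils rely largely on glycolysis. Complexes I, III and IV pass electrons to oxygen and pump protons across the inner mitochondrial membrane, and complex V, the ATP synthase, uses that gradient. The core membrane subunits are encoded by mitochondrial DNA and transcribed as long polycistronic RNAs, while all other subunits are encoded in the nucleus, so the complexes need both genomes.

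The promoters of some nuclear members are shown because they hold, or lack, the short motif bound by NRF1, a factor known to act on many of these genes. The letters below are RefSeq sequences of build GRCm38.p6, 5′ to 3′ on the strand of the gene. Capitals mark the letters GCATGCGC (NRF1, where matches on the opposite strands overlap) and GGGCGG (SP1), on either strand. The genes are Atp5g2, a c subunit of the ATP synthase rotor, at chr15:102671048-102671147 on the minus strand; Cox6a1, a subunit of complex IV, at chr5:115349065-115349164 on the minus strand; Cox8a, the smallest ubiquitous subunit of complex IV, at chr19:7217617-7217716 on the minus strand; and Cox7a2l, at chr17:83514334-83514433 on the minus strand. For Cox6a1 the bases lie 206 to 107 bases before the start of the transcript, and for the other genes 100 to 1 bases before it.
Atp5g2: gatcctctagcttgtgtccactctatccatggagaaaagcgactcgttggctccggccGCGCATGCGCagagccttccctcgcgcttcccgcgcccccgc
Cox6a1: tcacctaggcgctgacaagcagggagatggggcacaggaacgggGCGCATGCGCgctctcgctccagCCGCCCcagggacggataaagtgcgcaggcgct
Cox8a: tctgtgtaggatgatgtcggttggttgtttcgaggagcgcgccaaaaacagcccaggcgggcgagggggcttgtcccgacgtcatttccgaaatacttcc
Cox7a2l: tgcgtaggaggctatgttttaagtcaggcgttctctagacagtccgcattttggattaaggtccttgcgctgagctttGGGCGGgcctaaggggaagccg

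Over the 250 bases before the start, 74 of the 90 nuclear members had a sequence, in 79 windows. The NRF1 letters stood in 10.1% of these windows, in 4.29% of the 12090 windows of the 9452 genes with at least 50 UMIs in a class, and in 2.26% of all 32851 windows. The SP1 letters stood in 38% of the members' windows against 55.5% of those of expressed genes and 32.7% of all. CCGGAAGT, letters bound by ETS factors, stood in 3.80%, 5.86% and 2.88%, and AAGATGGC, bound by YY1, in 1.27%, 2.01% and 1.56%. The G and C content of the windows was 56.5%, 59.3% and 53.2%. These shares describe letters and not binding.

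The PBS library held 67143628 UMIs and the cmExoaCD11b library 81288480. After cell calling, filters and doublet removal, 6835 PBS cells with a median of 3461 UMIs and 7076 cmExoaCD11b cells with a median of 4098 UMIs were kept, and 15 kept barcodes occurred in both libraries. Gates on marker UMIs placed 5614 cells (82.1%) of PBS and 5960 (84.2%) of cmExoaCD11b in 11 classes, and the others had no class, or markers of more than 1. Genes outside the gates were higher in the class they mark than in every class they do not mark, apart from Lyz2 in immature neutrophils and H2-Aa in B cells, both of cmExoaCD11b. Interferon-stimulated genes (7 genes summed) were 1.37 to 3.19 times as high in cmExoaCD11b in all 11 classes. Estimated free RNA made up 1.24% to 6.56% of the UMIs of a class.

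Levels are UMIs per 1000000 UMIs of the class (CPM), summed over its cells and not divided by transcript length, since the assay tags 3′ ends. With 1 library per treatment there was no test between treatments. Intervals are 95% counting intervals (exact Poisson for levels, exact conditional binomial for ratios) and cover counting error only, not differences between mice or libraries. A gene was counted as higher or lower when its ratio, with 1 UMI added to each library, was at least 1.5-fold, among genes with at least 50 UMIs in the class. The same count over all genes is given beside it.

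Mitochondrial-encoded RNA was lowest in the neutrophils and highest in the epithelial cells of both libraries. In PBS the sum of the 13 genes was 8205 CPM in immature and 8510 CPM in mature neutrophils, 15792 to 25014 CPM in the other blood lineages and 33464 CPM in epithelial cells. In cmExoaCD11b the same levels were 9072, 8472, 18457 to 25128 and 42724 CPM. B cells (25014), dendritic cells (24550) and CD8 T cells (23970 CPM) were neighbors in PBS, and of these the intervals of dendritic cells overlapped with both others.

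Nuclear-encoded RNA followed another order. The sum was lowest in mature neutrophils, at 7392 CPM in PBS and 5035 CPM in cmExoaCD11b. Immature neutrophils, which still hold the transcripts of granule synthesis, had 11596 and 10374 CPM. In PBS the sums of epithelial cells (17808 CPM), CD8 T cells (17532 CPM) and monocytes (17271 CPM) were the highest, and the intervals of CD8 T cells overlapped with those of both others. In cmExoaCD11b monocytes were highest at 18942 CPM, and CD8 T cells, at 12449 CPM, stood next to CD4 T cells at 12494 CPM with overlapping intervals.

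The ratio of mitochondrial to nuclear UMIs comes from the same cells and is not divided by their total UMIs. The part of depth in it was not tested. Taken on sums over cells, the ratio differed between the neutrophil stages. It was lowest in immature neutrophils, at 0.708 in PBS and 0.874 in cmExoaCD11b. It was highest in B cells of PBS (1.93) and in T cells without Cd4 or Cd8 of cmExoaCD11b (2.48), and the fold between the highest and lowest class was 2.73 and 2.84. Mature neutrophils had 1.15 and 1.68, from sums in which 5% of cells held 58.7% and 47.9% of the mitochondrial UMIs. The median mature cell had 2502 and 2562 CPM of mitochondrial-encoded and 5805 and 4302 CPM of nuclear-encoded RNA. The median immature cell had 3593 and 4817 CPM and 8108 and 7028 CPM. At the median cell, immature neutrophils thus had the higher level of both kinds. No median of the ratio over cells is given, so its order between the stages is given for the sums only.

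**Figure D1:**
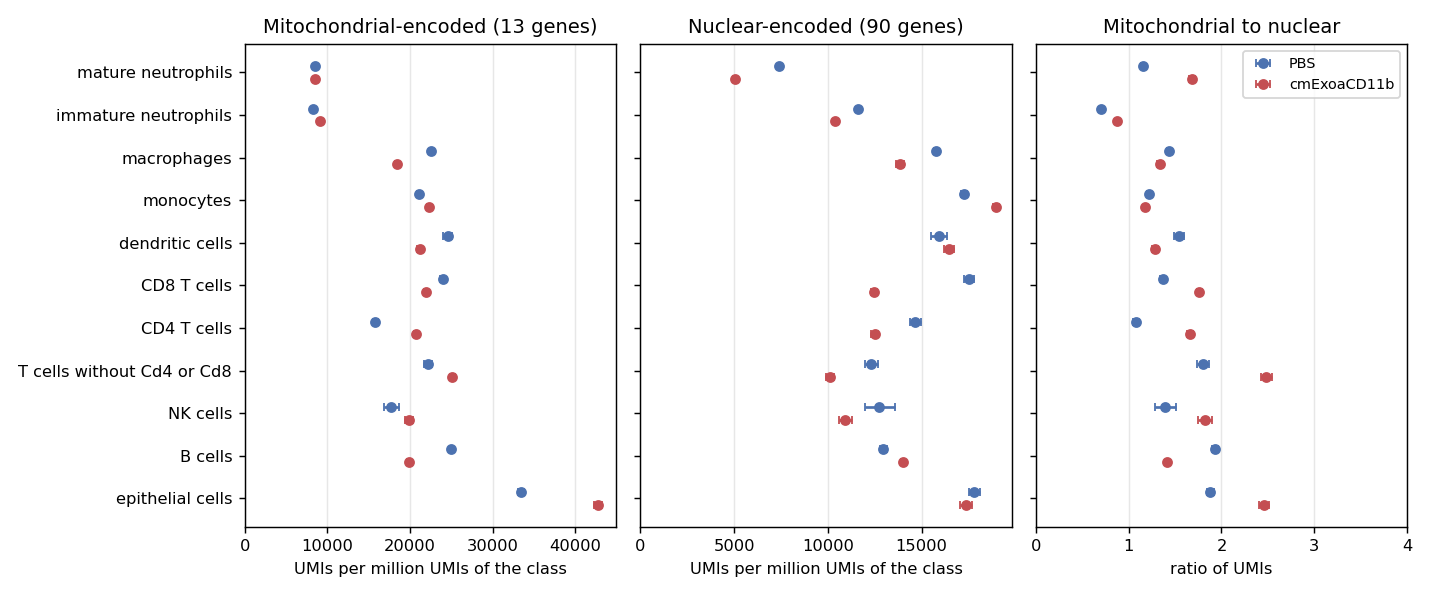
Mitochondrial-encoded level, nuclear-encoded level (both in UMIs per 1000000 UMIs of the class) and the ratio of the former to the latter, for 11 cell classes in the PBS (blue) and cmExoaCD11b (red) libraries; points are sums over the cells of 1 library and bars are 95% counting intervals. Both kinds of neutrophil sit at the left of the first panel, mature neutrophils sit alone at the left of the second, and immature neutrophils have the lowest ratio of the sums.

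The neutrophil stages were also compared within each library. Summed over cells, mature neutrophils had 1.04 times the mitochondrial-encoded level of immature neutrophils in PBS (interval 1.03 to 1.05) and 0.934 times in cmExoaCD11b (0.923 to 0.944). At the median cell the mature level was lower in both libraries, 2502 against 3593 CPM in PBS and 2562 against 4817 CPM in cmExoaCD11b. The summed nuclear-encoded level of mature neutrophils was 0.637 times that of immature neutrophils in PBS and 0.485 times in cmExoaCD11b. Of the 83 nuclear members counted, 54 in PBS were at least 1.5-fold lower in mature than in immature neutrophils, where 28.5% of all genes were. In cmExoaCD11b this held for 71 of 83, where 39.6% of all genes were lower. Cytosolic ribosomal protein genes differed by nearly the same factor, 0.620 in PBS and 0.484 in cmExoaCD11b. The stages also differed in depth. The median mature cell held 2876 UMIs in PBS and 2580 in cmExoaCD11b, and the median immature cell 6384 and 8421. The part of depth in these differences between the stages was not tested.

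Single genes followed their sums. Of the 78 nuclear members with at least 1000 UMIs, mature neutrophils had the lowest level of the 11 classes for 58 in PBS and 69 in cmExoaCD11b. Monocytes had the highest level for 15 and 40 of them and epithelial cells for 26 and 23. The NK cells of PBS, only 25, had the lowest level for 11 of the nuclear members. Of the 11 mitochondrial-encoded genes with as many UMIs, epithelial cells were highest for 9 and 11. The same counts over all genes are not given here, so no result about the members is drawn from them.

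A few subunits were well above the median of the other classes in both libraries. Cox6b2 is the testis-type isoform of the subunit that bridges the complex IV dimer. It had 18.9 CPM in immature neutrophils of PBS and 10.5 CPM in those of cmExoaCD11b. This was 17.1 and 3.25 times the median of the other classes, which was near the floor (1.11 and 3.24 CPM). The next highest classes were closer, with 9.29 CPM in monocytes of PBS and 7.80 CPM in macrophages of cmExoaCD11b. It made up 7.39% and 5.47% of the Cox6b UMIs of immature neutrophils and at most 3.51% in any other class. In epithelial cells, Ndufab1, the mitochondrial acyl carrier protein, had 194.8 and 168.2 CPM (2.39 and 2.43 times the median of the others). Of the 11 classes, immature neutrophils had the highest level of Cox6b2 and epithelial cells that of Ndufab1 in both libraries. Uqcr11, a small subunit of complex III, was highest in epithelial cells, at 205.0 and 163.5 CPM, and had 153.7 and 146.2 CPM in monocytes (1.71 and 2.55 times) and 164.7 and 112.1 CPM in macrophages (1.84 and 1.95 times). In B cells the assembly factor Ndufaf4 had 34.4 and 45.8 CPM (1.74 and 2.08 times the median of the others) and Ndufaf1 had 8.59 and 10.9 CPM (2.03 and 1.69 times). In PBS, CD8 T cells had more Ndufaf4 (58.4 CPM) than B cells. Ndufaf1 rested on 15 UMIs in B cells of PBS and 37 in those of cmExoaCD11b. More Ndufaf1 than in B cells was found in epithelial (15.9 CPM), CD4 T (9.29 CPM) and dendritic cells (8.98 CPM) of PBS, and in dendritic cells (12.7 CPM) of cmExoaCD11b.

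Between the treatments, the nuclear-encoded sum was lower in cmExoaCD11b in 8 of 11 classes and the mitochondrial-encoded sum in 5 of 11. The lowest nuclear ratios were those of mature neutrophils, 0.681 (interval 0.670 to 0.692), and of CD8 T cells, 0.710 (0.696 to 0.725). Immature neutrophils had 0.895, macrophages 0.877, CD4 T cells 0.853, T cells without Cd4 or Cd8 0.821 and NK cells 0.856. Epithelial cells had 0.976 with an interval of 0.953 to 1.00. Monocytes (1.10), B cells (1.08) and dendritic cells (1.03) had more nuclear-encoded RNA in cmExoaCD11b. The direction of the nuclear sum turned under some settings in macrophages (0.10 on the log2 scale with cells thinned to 1000 UMIs) and dendritic cells (-0.14). In epithelial cells it turned too (0.030 relative to the median ratio of all genes). At the median cell, nuclear-encoded RNA was higher in cmExoaCD11b in macrophages (12075 and 12989 CPM) and epithelial cells (15235 and 17479 CPM), against the direction of their sums. All class ratios come from the same pair of libraries.

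**Figure D2:**
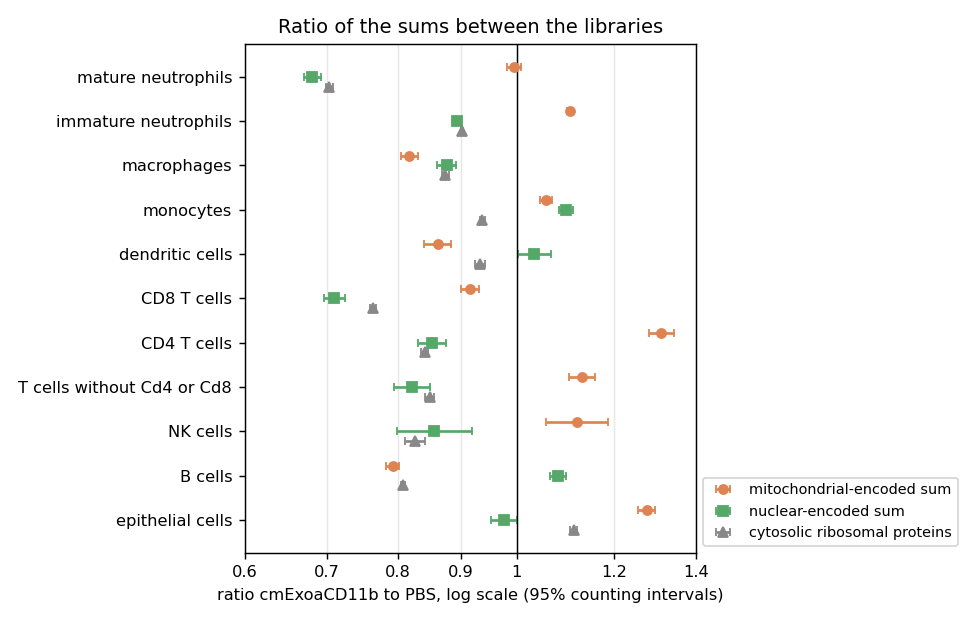
Ratio of cmExoaCD11b to PBS (log axis) of the mitochondrial-encoded sum (circles), the nuclear-encoded sum (squares) and the sum of the cytosolic ribosomal protein genes (triangles) in each class, with 95% counting intervals. The nuclear sums of mature neutrophils (0.681) and CD8 T cells (0.710) lie farthest to the left, while the mitochondrial sums run from 0.792 in B cells to 1.31 in CD4 T cells.

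The mitochondrial-encoded sum did not follow the nuclear one. It was 8510 CPM in mature neutrophils of PBS and 8472 CPM in those of cmExoaCD11b, a ratio of 0.996 (0.982 to 1.01). On the log2 scale this ratio of -0.01 ranged from -1.03, with cells called by UMI rank alone, to 0.35, without the 5% of cells highest in mitochondrial UMIs, so its direction depended on which cells were taken. In immature neutrophils the ratio was 1.11 (1.10 to 1.11). In CD4 T cells it was 15792 and 20726 CPM, a ratio of 1.31 (1.28 to 1.34), and in B cells 25014 and 19822 CPM, a ratio of 0.792 (0.783 to 0.802). The median CD4 T cell had 15352 and 16413 CPM, values closer to each other than the sums were. Macrophages had 0.817, dendritic cells 0.862, CD8 T cells 0.916, monocytes 1.06, NK cells 1.12, T cells without Cd4 or Cd8 1.13 and epithelial cells 1.28. The mitochondrial-to-nuclear ratio was therefore higher in cmExoaCD11b in 7 of 11 classes, by 1.24 (immature neutrophils) to 1.54 times (CD4 T cells). It was lower in B cells (0.733 times), dendritic cells (0.834), macrophages (0.932) and monocytes (0.964). The direction of the mitochondrial sum also turned under at least 1 setting in monocytes, CD8 T cells, NK cells, dendritic cells and epithelial cells, the last to -0.90 on the log2 scale without a limit on mitochondrial UMIs per cell. At the median cell, the direction differed from that of the sum in mature neutrophils and in macrophages (19458 and 20305 CPM).

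In mature neutrophils, 45 of the 78 nuclear members counted (57.7%) were at least 1.5-fold lower in cmExoaCD11b, where 22.2% of all genes were, and 0 were higher, where 12.5% of all genes were. The median log2 ratio of the nuclear members was -0.62, against -0.16 for all 7846 genes, and 73 of the 78 had a ratio below 1. The difference ran through complexes I, III, IV and V. The nuclear subunits of complex I had 1967 CPM in PBS and 1365 in cmExoaCD11b (ratio 0.694), those of complex III 717.5 and 472.1 (0.658), those of complex IV 2455 and 1585 (0.646) and those of complex V 2105 and 1446 (0.687). Their mitochondrial-encoded partners had ratios of 0.903, 0.921, 1.01 and 1.07 in the same order.

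Among single genes of mature neutrophils, Ndufa5, an accessory subunit of complex I, had the smallest ratio, with 10.2 CPM in PBS and 2.46 CPM in cmExoaCD11b (0.242, interval 0.111 to 0.472). Ndufaf8, an assembly factor of complex I, had 15.5 and 5.91 CPM (0.380), and Ndufv3, a small subunit of its NADH-binding module, 81.8 and 33.0 CPM (0.403). Ndufv1, which binds NADH and FMN, had 15.8 and 6.65 CPM (0.420, 0.265 to 0.644). The iron-sulfur subunit Ndufs1 had 13.4 and 8.12 CPM (0.608).

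In the other complexes of mature neutrophils, the core protein Uqcrc1 (28.8 and 23.1 CPM, ratio 0.804, interval 0.622 to 1.03) and the Rieske iron-sulfur protein Uqcrfs1 (49.0 and 40.1 CPM, 0.819, 0.675 to 0.991) of complex III differed by less than 1.5-fold. In complex IV, Cox4i1, a regulatory subunit, had 343.3 and 280.6 CPM (0.817), Cox5a 153.3 and 102.1 CPM (0.666), Cox5b 238.3 and 161.2 CPM (0.677) and Cox8a 818.2 and 457.6 CPM (0.559, 0.530 to 0.589). The catalytic subunits of the ATP synthase had 96.9 and 62.0 CPM (Atp5a1, alpha, 0.640) and 125.5 and 81.0 CPM (Atp5b, beta, 0.645). The c-subunit genes Atp5g1 (52.6 and 26.1 CPM), Atp5g2 (91.5 and 45.04 CPM) and Atp5g3 (41.4 and 27.3 CPM) had ratios of 0.496, 0.492 and 0.660.

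Cox7a2l went the other way in mature neutrophils. It had 85.3 CPM in PBS and 120.6 CPM in cmExoaCD11b, the largest ratio of the nuclear members counted there (1.41, 1.25 to 1.60), still under 1.5-fold. Its share of the UMIs of Cox7a1, Cox7a2 and Cox7a2l was 29.5% in PBS (95% interval 27.5% to 31.6%, exact binomial) and 47.3% in cmExoaCD11b (44.2% to 50.3%). In immature neutrophils the share was 31.1% and 32.7%. In the other classes it lay between 42.2% and 73.3%. Ndufaf7, a methyltransferase needed to assemble complex I, had 16.3 and 19.4 CPM (1.19) and Ndufa8, an accessory subunit, 53.0 and 62.3 CPM (1.17), both with intervals that include 1.

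**Figure D3:**
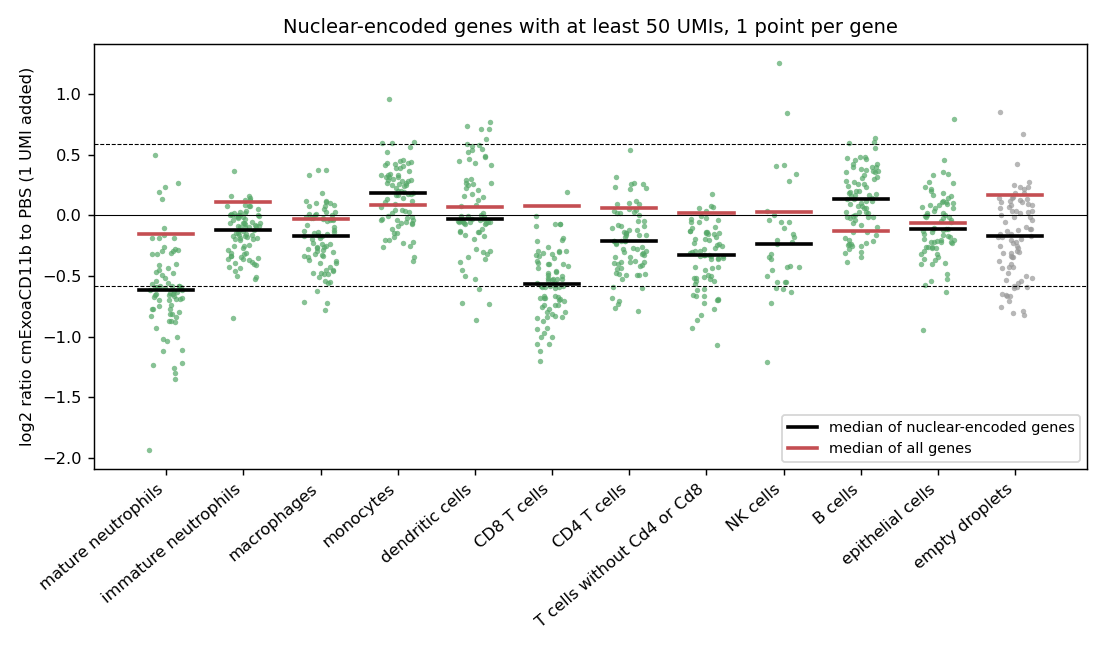
Log2 ratio of cmExoaCD11b to PBS (1 UMI added) of each nuclear-encoded gene with at least 50 UMIs, by class and in empty droplets (gray), with the median of these genes (black bar) and of all genes (red bar); dashed lines mark 1.5-fold. The black bar lies well under the red one in mature neutrophils (-0.62 against -0.16) and CD8 T cells (-0.57 against 0.07).

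Other gene groups also differed in mature neutrophils. Cytosolic ribosomal protein genes had 41979 CPM in PBS and 29528 CPM in cmExoaCD11b (0.703), and the 7 hypoxia genes had 5122 and 2826 CPM (0.552). S100a8 and S100a9 had 45607 and 73157 CPM together, the erythroid genes Hba-a1 and Hbb-bs 15.4 and 1215 CPM, and the fibroblast genes Col1a1, Col3a1 and Dcn 120.9 and 80.5 CPM. The median cell held 2876 UMIs in PBS and 2580 in cmExoaCD11b. Their part in the result was not tested. The mitochondrial sum of mature neutrophils rested on few cells, since the 5% of cells with the highest level held 58.7% of its UMIs in PBS and 47.9% in cmExoaCD11b. The median cell had 2502 and 2562 CPM of mitochondrial-encoded RNA and 5805 and 4302 CPM of nuclear-encoded RNA.

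Immature neutrophils differed less. The nuclear sum was 0.895 times as high in cmExoaCD11b (0.890 to 0.899), 1 of 83 nuclear members was at least 1.5-fold lower (5.5% of all genes) and 0 were higher (9.44% of all genes). The 1 gene was Cox6b2 (0.556, 0.482 to 0.642). Next came Uqcr11, 81.5 and 56.8 CPM (0.697), and Ndufa1, a small subunit needed to assemble complex I, 101.5 and 71.4 CPM (0.704). Ndufaf7 (22.5 and 29.0 CPM, 1.29, 1.15 to 1.44) had the largest ratio, before Ndufaf6 and Ndufs1 (1.12 each, intervals including 1).

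Among immature neutrophils, levels differed more between cells split by detected granule or cycle genes than between treatments. Cells with at least 2 of the primary granule genes Elane, Mpo and Prtn3 (334 in PBS and 576 in cmExoaCD11b) had 16145 and 13875 CPM of nuclear-encoded RNA, and cells with none of them (931 and 1083) had 9378 and 7395 CPM. Mitochondrial-encoded RNA was 10185 and 10606 CPM in the former and 7241 and 7663 CPM in the latter. Split by the cycle genes Mki67, Top2a and Stmn1, nuclear-encoded RNA was 14886 and 13302 CPM with at least 2 detected and 8679 and 6802 CPM with none. In each of these 4 groups the nuclear sum was lower and the mitochondrial sum higher in cmExoaCD11b. Cells with more of these genes detected also held more UMIs. The median was 19397 and 20637 UMIs with at least 2 granule genes, and 6772 and 7166 with none. It was 23591 and 21491 with at least 2 cycle genes, and 4167.5 and 5015 with none. The part of depth in these differences was not tested.

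CD8 T cells, 139 in PBS and 369 in cmExoaCD11b, also had a low ratio of the nuclear sum. Of 78 nuclear members, 36 (46.2%) were at least 1.5-fold lower in cmExoaCD11b, where 11.6% of all genes were, and 0 were higher, where 16.3% of all genes were. The median log2 ratio was -0.57 against 0.07 for all genes, and 77 of 78 had a ratio below 1. Complex I had 4890 and 3408 CPM (0.697), complex III 1773 and 1260 (0.711), complex IV 4406 and 3187 (0.723) and complex V 5909 and 4096 (0.693). The complexes were thus lower by nearly the same factor.

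The smallest ratios in CD8 T cells were those of Ndufaf4, an early assembly factor of complex I (58.4 and 25.2 CPM, 0.432), of Ndufv1 (70.3 and 32.3 CPM, 0.459, 0.315 to 0.668) and of Ndufs5, an accessory subunit (136.3 and 65.2 CPM, 0.478). Ndufs1 had 55.2 and 42.3 CPM (0.766, 0.528 to 1.12). The ATP synthase genes Atp5b (508.3 and 311.7 CPM, 0.613), Atp5a1 (419.7 and 291.2 CPM, 0.694) and Atp5g1 (266.1 and 159.1 CPM, 0.598) were lower as well. Uqcrc1 (104.9 and 84.5 CPM, 0.806) and Cox4i1 (686.8 and 594.1 CPM, 0.865) differed less. The largest ratios belonged to Ndufs4, a subunit at the NADH-binding module (172.0 and 197.2 CPM, 1.15, 0.947 to 1.39), Cox7a2l (340.7 and 340.5 CPM, 0.999) and Atp5h, a stalk subunit (571.1 and 544.8 CPM, 0.954).

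In CD8 T cells, too, ribosomal protein genes were lower (233049 and 177990 CPM, 0.764), as were hypoxia genes (1077 and 591.7 CPM), while Malat1, a nuclear RNA, had 8169 and 12149 CPM. The median cell held 5066 UMIs in PBS and 3906 in cmExoaCD11b. The part of these values in the result was not tested. The 17 PBS and 34 cmExoaCD11b cells with at least 2 cycle genes had 22725 and 16757 CPM of nuclear-encoded RNA, and the 83 and 251 cells with none had 14174 and 11301 CPM. The difference of the nuclear sum was thus seen in cells with and without cycle genes. The mitochondrial sum differed in direction, with 20540 and 25530 CPM in the former and 25787 and 22036 CPM in the latter. Their median cells held 12503 and 6300 UMIs and 4501 and 3618 UMIs, and the part of depth was not tested.

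CD4 T cells had 7 of 76 nuclear members at least 1.5-fold lower (5.02% of all genes) and 0 higher (10.9%). The lowest were Atp5k, a membrane subunit of the ATP synthase (123.8 and 71.8 CPM, 0.580), Ndufv3 (198.1 and 116.8 CPM, 0.589) and Ndufa9 (55.7 and 33.7 CPM, 0.605). The highest were Ndufaf2, Ndufc1 and Atp5o (1.52, 1.27 and 1.21), all with intervals that include 1. Here the mitochondrial-encoded sums of all complexes were higher in cmExoaCD11b, with ratios of 1.31 for complex I, 1.36 for mt-Cytb, 1.28 for complex IV and 1.38 for complex V.

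T cells without Cd4 or Cd8 had 14 of 73 nuclear members lower (6.9% of all genes) and 0 higher (10.5%), led by Ndufv3 (185.0 and 88.6 CPM, 0.479), Ndufb3 (112.0 and 59.4 CPM, 0.530) and Uqcr10 (132.9 and 73.5 CPM, 0.553). Atp5b, Ndufa4 and Cox5a had the largest ratios (1.14, 1.07 and 1.06, intervals including 1). NK cells, only 25 in PBS, had 5 of 33 nuclear members lower (10% of all genes), Ndufb11, Atp5c1, Cox6b1, Atp5d and Ndufb1-ps (0.439 to 0.692), and 2 higher (17.5%), Atp5j (63.8 and 179.4 CPM) and Cox7a2 (102.0 and 202.9 CPM). Only Ndufb11 and Atp5j had intervals that leave out 1. As these classes of fewer than 100 cells in a library lie outside the rule for named genes, the genes called in NK cells, macrophages, dendritic cells and epithelial cells are named after their values were seen.

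Macrophages had 4 of 79 nuclear members lower (13% of all genes) and 0 higher (11.1%). The 4 were Cox7b, Ndufab1, Atp5b and Ndufaf8, with ratios of 0.578 to 0.628, and Atp5b had 379.8 and 230.9 CPM (0.608, 0.528 to 0.697). All 12 mitochondrial-encoded genes counted had ratios below 1 there when summed over cells, while the median macrophage had 19458 and 20305 CPM of mitochondrial-encoded RNA. S100a8 and S100a9, neutrophil genes, had 10880 and 34422 CPM together in the macrophages, and the hemoglobin genes 4.25 and 1351 CPM, and their part was not tested.

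In monocytes 4 of 79 nuclear members were higher and 0 lower, both under the shares of all genes (11.4% and 7.04%). The median log2 ratio of the nuclear members was 0.18, against 0.09 for all genes, and 55 of 79 had a ratio above 1. Relative to the median gene, the log2 ratio of the nuclear sum was 0.048. The higher genes were Ndufaf4, at 13.1 and 20.02 CPM with an interval that includes 1 (1.53, 0.969 to 2.45, named after its value was seen), Ndufaf7 (19.8 and 39.0 CPM, 1.963, 1.38 to 2.83), Ndufa4, a subunit of complex IV (349.1 and 531.5 CPM, 1.52, 1.397 to 1.66), and Ndufb11, a membrane subunit of complex I (214.9 and 324.5 CPM, 1.51, 1.35 to 1.69). Ndufa1, Ndufv3 and Cox7c had the smallest (0.768, 0.786 and 0.835). Ndufa4l2, the paralog of Ndufa4 known as a target of hypoxia-inducible factor, had 35 UMIs in PBS monocytes and 1 in those of cmExoaCD11b, and 18 and 0 in macrophages. The 7 hypoxia genes had 2859 and 1146 CPM in monocytes (0.401), and the fibroblast genes Col1a1, Col3a1 and Dcn 52.3 and 412.5 CPM, and their part was not tested.

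B cells had 3 of 80 nuclear members higher (7.62% of all genes) and 0 lower (13.9%): Ndufs5 (104.9 and 163.5 CPM, 1.56), Ndufb6 (67.6 and 103.3 CPM, 1.53) and Ndufa11 (81.9 and 124.2 CPM, 1.52), all of complex I. Ndufa6, Atp5mpl and Uqcrh had the smallest ratios (0.769, 0.788 and 0.808). The nuclear and mitochondrial genomes were opposed in B cells. The mitochondrial-encoded complexes had ratios of 0.751 (I), 0.802 (III), 0.778 (IV) and 0.861 (V), and the nuclear-encoded ones 1.14, 1.04, 1.04 and 1.09. Immunoglobulin genes had 90177 and 151416 CPM in these cells and the 3 cycle genes 248.7 and 402.2 CPM, and their part was not tested.

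Dendritic cells, 29 and 70, had 6 of 73 nuclear members higher (17.1% of all genes) and 4 lower (10.4%). The higher ones included Ndufa4, Ndufb9 and Ndufs4 (1.52 to 1.68), Uqcrc1 (83.8 and 146.6 CPM, 1.75, 1.15 to 2.74) and Uqcrfs1 (98.8 and 168.5 CPM, 1.71). The lower ones were Ndufa1 (116.8 and 64.6 CPM, 0.554), Ndufa3, Ndufv3 and Atp5e (0.609 to 0.658). Epithelial cells, 45 and 32, had 2 of 76 lower (11.3% of all genes), Ndufa1 (91.7 and 46.7 CPM, 0.509) and Uqcr10 (182.3 and 116.8 CPM, 0.641), and 1 higher (6%), Ndufs4 (115.5 and 200.9 CPM, 1.74).

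**Figure D4:**
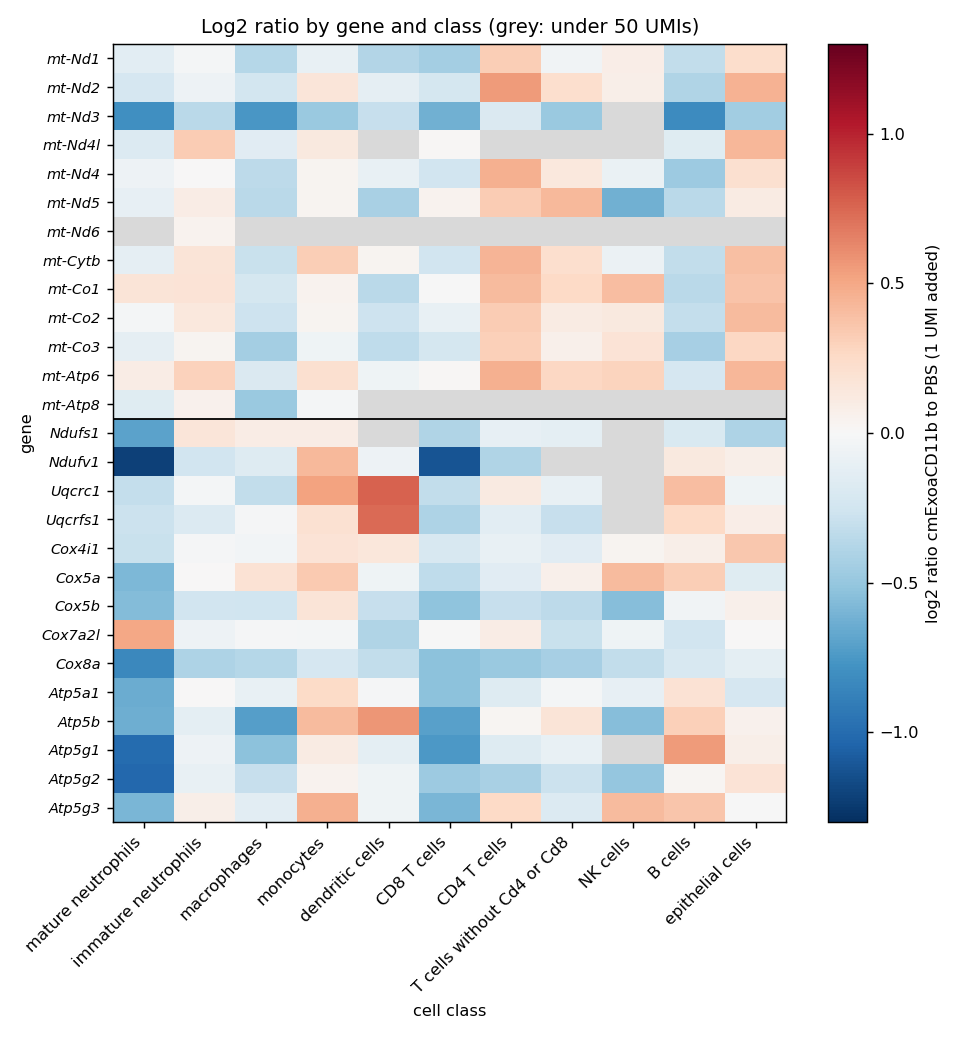
Log2 ratio of cmExoaCD11b to PBS (1 UMI added) of the 13 mitochondrial-encoded genes and of 14 core or isoform nuclear genes (rows) in 11 classes (columns), blue lower and red higher in cmExoaCD11b, gray under 50 UMIs in the class. The rows of mt-Nd3 and Cox8a are blue in every class counted, and the nuclear rows of mature neutrophils and CD8 T cells are blue apart from Cox7a2l.

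Of the 13 mitochondrial-encoded genes, 0 were at least 1.5-fold higher in any class, and at most 1 was lower. Per class 9 to 13 of them were counted. Of all genes, 6% to 17.5% were higher. The 1 lower gene was 8.33% of those counted in mature neutrophils and macrophages, where 22.2% and 13% of all genes were lower. It was 9.09% in CD8 T cells and B cells (11.6% and 13.9%) and 11.1% in NK cells (10%). With so few genes, no result about the members is drawn from these counts. mt-Nd3, a small membrane subunit of complex I, had a ratio below 1 in all 10 classes with at least 50 UMIs of it, from 0.569 in B cells (180.5 and 102.8 CPM) to 0.879 in CD4 T cells (126.9 and 111.6 CPM). It was the gene at least 1.5-fold lower in mature neutrophils (64.7 and 37.2 CPM), macrophages, CD8 T cells and B cells, while in NK cells it was mt-Nd5. In empty droplets mt-Nd3 had 73.3 and 33.8 CPM (0.462), so it was lower in cmExoaCD11b outside cells as well.

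The other abundant mitochondrial-encoded genes spread about as widely over the classes as their sum. mt-Co1, the catalytic subunit of complex IV, ranged from 0.786 in B cells to 1.33 in CD4 T cells, and mt-Atp6, the proton channel subunit of the ATP synthase, from 0.860 to 1.38 in the same classes. The ratios of mt-Co2 spanned 0.806 to 1.33, those of mt-Co3 0.734 to 1.24, those of mt-Cytb 0.802 to 1.36, those of mt-Nd1 0.739 to 1.25, those of mt-Nd2 0.762 to 1.47, those of mt-Nd4 0.722 to 1.38 and those of mt-Nd5 0.670 to 1.35. mt-Atp8 overlaps mt-Atp6, and mt-Nd4l overlaps mt-Nd4 in shared transcripts, so their few UMIs (0.0523% to 0.0598% and 0.134% to 0.152% of the mitochondrial UMIs of mature neutrophils) cannot be assigned with certainty. mt-Nd6, the only one on the other strand, reached 50 UMIs in immature neutrophils alone (2.35 and 2.44 CPM). mt-Co1 was 19.7% and 22.2% of the mitochondrial UMIs of mature neutrophils.

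Some nuclear genes had a ratio below 1 in every class in which they were counted. Cox8a, Atp5e (the epsilon subunit of the ATP synthase), Cox6c and Ndufa2 did so in 11 classes, and Ndufa1, Ndufv3, Atp5mpl and Ndufb4 in 10. These genes were picked by the ratios themselves, and all classes come from the same pair of libraries. The share of all genes with such ratios is not given here, so no result about the members is drawn. Cox8a ranged from 0.559 in mature neutrophils to 0.917 in epithelial cells. In empty droplets Cox8a had 494.9 and 280.7 CPM (0.567) and Atp5e 285.6 and 180.4 CPM (0.632). Over all 81 nuclear members counted in empty droplets, 12 were at least 1.5-fold lower, where 7.33% of all genes were, and 2 were higher, where 14.8% of all genes were, with a median log2 ratio of -0.17 against 0.17 for all genes. Lower levels of these genes were thus also present in RNA outside cells, where the total nuclear-encoded level was 11380 and 10023 CPM.

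Members with short transcripts had a lower median ratio than those of 1000 bases or more in empty droplets and in every class. The gap was small in mature neutrophils and in T cells without Cd4 or Cd8. Among members with an annotated transcript under 600 bases (GENCODE M21) the median log2 ratio in empty droplets was -0.37, against 0.02 for other genes of that length, and at 1000 bases or more it was 0.07 against 0.20. In immature neutrophils the medians were -0.31 for short and -0.07 for long members. They were -0.04 and 0.27 in monocytes and -0.06 and 0.26 in dendritic cells. In mature neutrophils the long members were nearly as low as the short ones, with medians of -0.62 and -0.67 against -0.11 and -0.28 for other genes. In CD8 T cells the medians were -0.53 for long and -0.68 for short members, against 0.15 and -0.12. The bin of 1000 bases or more had no upper limit on length. With such a limit, long members had -0.43 against -0.14 for other genes in CD8 T cells. The values were -0.60 against -0.23 in mature neutrophils and 0.06 against 0.09 in empty droplets. In T cells without Cd4 or Cd8 the long members then had -0.36, below the -0.33 of the short ones. In mature neutrophils and CD8 T cells members were thus lower than other genes at both lengths. The difference of long members was smaller with the limit. Cytosolic ribosomal protein genes were also lower than other genes there. Without the limit, short and long ones had -0.71 and -0.43 in mature neutrophils and -0.45 and -0.34 in CD8 T cells.

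The isoform pairs kept their main partner in both libraries. Cox4i1 made up at least 99.01% of the Cox4i UMIs in every class, Cox6a1 at least 95.9% of Cox6a and Ndufa4 at least 95.9% of the pair Ndufa4 and Ndufa4l2. The tissue-restricted genes were rare, with 75 UMIs of Cox4i2 in PBS and 33 in cmExoaCD11b over all classes, 39 and 21 of Cox7a1, 14 and 11 of Cox6a2 and 0 and 1 of Cox8b. Of the 3 genes for the same c subunit, Atp5g2 had the largest share in all classes, 43.7% to 65.2% of their UMIs.

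The genes around the chain were described by lists of their own. In mature neutrophils, genes of the mitochondrial ribosome, which translates the mitochondrial-encoded subunits, had 1851 and 1405 CPM (0.759), with 34 of 64 at least 1.5-fold lower and 1 higher. Genes of the tricarboxylic acid cycle, which feeds electrons into the chain, had 394.5 and 230.6 CPM (0.585), with 5 of 9 lower. Genes that copy or transcribe mitochondrial DNA had 61.0 and 34.5 CPM (0.565), with 4 of 4 lower, assembly factors of complexes III and IV 0.651 (3 of 11 lower) and complex II 0.776 (1 of 6 lower). In CD8 T cells, 21 of 70 mitochondrial ribosome genes (0.730), 4 of 10 cycle genes (0.745) and 3 of 7 complex II genes (0.653) were lower, and Cycs, the electron carrier cytochrome c, had 288.8 and 174.9 CPM (0.606). These counts are to be read against the 22.2% and 11.6% of all genes that were lower.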

How the data were processed

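Each library (1 PBS, 1 cmExoaCD11b, cells of 3 mice pooled) was given as a matrix of UMI counts per gene and barcode, deposited by the authors without normalization and including empty barcodes. The file header names Cell Ranger 7.1.0, whereas the study's methods give another version, and the genome build is not given in the sources used here. Cells were called by UMI rank (the 99th percentile of the first 3000 barcodes, divided by 10) and, from 500 UMIs, by a test against the profile of barcodes with at most 100 UMIs (10000 simulations, false discovery rate 0.01). Cells needed 200 genes and at most 20% mitochondrial UMIs. Scrublet in scanpy 1.11.5 (30 principal components) ranked doublets, and the top scores were removed to an expected share of 0.8% per 1000 cells (421 PBS and 453 cmExoaCD11b cells).

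Classes were gated by detected markers, and a cell that met gates of more than 1 class other than neutrophils was left out. Immature neutrophils needed 3 of Camp, Ngp, Ltf, Fcnb, Cebpe, Elane, Mpo and Prtn3 with 5 UMIs together, and mature neutrophils 3 of Csf3r, Cxcr2, Retnlg, Il1r2, Mmp9, Hdc and G0s2. T cells needed 2 CD3 or T cell receptor genes, divided by Cd8a or Cd8b1 and Cd4. Macrophages needed 2 of C1qa, C1qb and C1qc. Monocytes needed Ccr2, Vcan, F13a1 or Ly6c2 beside general phagocyte genes, and B, NK, dendritic and epithelial cells 2 of their markers. Classes under 25 cells in a library were not compared.

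Counts were summed over cells, which are not replicates, and given per 1000000, with no test, since there was 1 library per treatment. Intervals used scipy 1.17.1 and cover counting error only. Genes named were all mitochondrial-encoded genes, core subunits and isoform pairs, the 3 largest and 3 smallest ratios in each class with at least 100 cells per library, and the 2 members highest in each class, except 1 nuclear gene that is not reported here by name. Members and lists were chosen with earlier results of these data known, and the length bins, motifs, cycle and granule splits and the trim of the 5% of cells highest in mitochondrial UMIs after the values were seen. On counts simulated for mature neutrophils, 96% of genes made 2-fold higher and 92.6% of those made 2-fold lower were called, as were 1.24% (higher) and 1.21% (lower) of unchanged genes. Both libraries were simulated from a shared profile with counting noise only. These shares thus leave out differences between mice, cells and libraries and are not the error rate of the calls. The 14 alternatives covered cell calling, filters, gates, scale, free RNA and depth. Other software was python 3.11.15, numpy 2.4.6, pandas 2.3.3 and matplotlib 3.10.9.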

Additional observations from a re-analysis of the deposited data

Results flagged for a closer look

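Class sums whose ratios lay on opposite sides of 1 in different classes drew attention, and the difference between classes was not tested, as 1 library per treatment gives no replicate error. The mitochondrial-encoded sum had a ratio of cmExoaCD11b to PBS of 0.792 in B cells and of 1.31 in CD4 T cells. The median B cell had 26124 CPM in PBS and 21220 CPM in cmExoaCD11b, and the median CD4 T cell 15352 and 16413 CPM. The nuclear-encoded sum had a ratio of 0.681 in mature neutrophils and of 1.10 in monocytes. All 4 ratios kept their direction under the 12 settings that gave a value for these classes, but their size changed. On the log2 scale the mitochondrial ratio of B cells was -0.34, and -0.094 with cells thinned to 1000 UMIs. That of CD4 T cells was 0.39, and 0.25 without a limit on mitochondrial UMIs. Relative to the median gene, the nuclear ratio went from -0.55 to -0.40 in mature neutrophils and from 0.13 to 0.048 in monocytes.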

How the results depend on the processing

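No paired analysis was possible because each treatment had 1 library of pooled cells from different mice. Of the values under alternative settings, 108 of 123 mitochondrial class sums, 116 of 123 nuclear class sums and 2382 of 2613 values of named genes kept their direction. The nuclear sums of mature neutrophils (-0.82 to -0.40, log2) and CD8 T cells (-0.57 to -0.32) kept it in 12 of 12 settings. Reversed log2 ratios were, for the mitochondrial sum of monocytes, -0.12 with at most 10% mitochondrial UMIs, -0.17 with cells ranked by UMIs alone and -0.0056 relative to the median gene, and for that of CD8 T cells 0.050 with ranked cells. Without a mitochondrial limit the mitochondrial sum was -0.18 in NK and -0.90 in epithelial cells. Relative to the median gene the nuclear sum of dendritic cells was -0.021 and that of epithelial cells 0.030. As a mean over cells the nuclear sum was 0.074 in macrophages and -0.074 in dendritic cells and the mitochondrial sum 0.21 in dendritic cells. With cells thinned to 1000 UMIs these were 0.10, -0.14 and 0.18. Thinning also reversed Atp5g3 (0.38) in CD8 T cells, Uqcrc1 (-0.0083) and Uqcrfs1 (-0.95) in dendritic cells, Ndufv1 in T cells without Cd4 or Cd8 (0.0052) and mt-Nd6 in epithelial cells (-1.68).

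The fold between the highest and lowest class of the mitochondrial-to-nuclear ratio was 5.55 in PBS without a mitochondrial limit, 2.66 with ranked cells, 2.80 without doublet removal, 2.98 with 1 more marker per gate, 3.12 with free RNA subtracted, 3.52 as a mean over cells, 3.51 thinned and 3.26 without the 5% of cells highest in mitochondrial UMIs. In cmExoaCD11b it was 2.66, 1.98, 2.97 (1 more marker), 3, 2.08, 2.36 and 3.03 in that order, leaving out doublet removal, which stayed within the counting interval. The nuclear sum was lower in 5 of 7 classes with ranked cells, and the mitochondrial sum in 3 of 11 as a mean over cells and 3 of 10 thinned. Pairs of member and class at least 1.5-fold higher numbered 16, and 4 with 1 more marker, 25 thinned, 33 with no UMI minimum and 8 with a minimum of 200 UMIs. Pairs lower numbered 123, and 62 thinned and 79 with a minimum of 200. By class, 6% to 17.5% of all genes were higher and 5.02% to 22.2% lower. No share of all genes was pooled over the classes, so no result about the members is drawn from these totals. Except where a setting left fewer genes or cells, the cause was not tested. In NK cells, depth left 33 of the 90 nuclear members with at least 50 UMIs.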

Other observations

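In immature neutrophils the lists around the chain differed little between treatments: 1 of 78 mitochondrial ribosome genes was at least 1.5-fold lower (2498 and 2486 CPM, 0.995), 0 of 10 tricarboxylic acid cycle genes (606.9 and 521.8 CPM, 0.860) and 0 of 9 genes for the expression of mitochondrial DNA (0.998), where 5.5% of all genes were lower. In B cells 13 of 76 mitochondrial ribosome genes were higher in cmExoaCD11b and 1 was lower (3457 and 4242 CPM, 1.23), where 7.62% of all genes were higher and 13.9% lower, and Cycs had 205.1 and 307.1 CPM (1.497). In monocytes 8 of 76 mitochondrial ribosome genes were higher and 1 was lower (4392 and 5034 CPM, 1.15), near or under the 11.4% of all genes that were higher and the 7.04% that were lower, and Cycs had 257.5 and 410.0 CPM (1.59). In dendritic cells the tricarboxylic acid cycle genes had 1623 and 1091 CPM (0.672), with 1 of 10 higher and 1 lower, where 17.1% of all genes were higher and 10.4% lower. With 1 library per treatment these values have no replicate error.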
